A study of Mus musculus with 10 samples.

Results

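The methylation of 10 genes of late sperm development was described in spermatozoal DNA of decitabine treated mice and their F3-generation descendants. The genes were Prm1, Prm2 and Prm3, Tnp1 and Tnp2, Odf1 and Smcp, and Gapdhs, Ldhc and Pgk2, listed by name for their function and not for a measured value. They are 10 of 21938 protein-coding genes of the GENCODE annotation on GRCm38, the sequence of the build mm10. A gene was represented by every CpG site from 2 kb before to 2 kb behind it that had at least 10 reads in an animal after both strands were summed. This gave 109 of the 1342754 CpG sites of the whole series.

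All mice were C57Bl/6 males. In the P-generation 2 vehicle-control animals (C8 and C14) had received DMSO (7.5%) in buffered saline and 3 animals (D10, D11 and D13) decitabine at 0.1 mg/kg body weight in this vehicle. Injections began at 7 weeks of age, were given 3 times a week and lasted 7 weeks. The F3-generation held 2 animals descended from vehicle-control males (F3C9 and F3C30) and 3 from decitabine treated males (F3D1, F3D7 and F3D31), and was itself not treated. F3C9 descended from C8, F3C30 from C14, F3D7 from D11, and both F3D1 and F3D31 from D10, so that the 3 animals stand for 2 treated males and the generations are related. Animals of both generations were killed at 14 to 15 weeks. Spermatozoa came from both minced epididymides of each animal and were passed through a strainer, and the study checked the purity of randomly chosen parental preparations by flow cytometry. Decitabine is a cytidine analogue that traps DNA methyltransferases, and the comparisons asked whether methylation differed between the groups of the treated generation and of the unexposed descendants.

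After meiosis the round spermatid replaces most of its histones, first by transition proteins and then by arginine-rich protamines, which fold the DNA into the dense sperm head. At the same stage the tail is built and the cell switches to sperm-specific enzymes of energy metabolism. Tnp1 and Tnp2 encode the transition proteins, Prm1 and Prm2 the protamines, and Prm3 lies between Prm2 and Tnp2 in the same cluster. Odf1 is a protein of the outer dense fibres of the tail and Smcp a protein of the mitochondrial capsule. Gapdhs, Ldhc and Pgk2 are the sperm forms of a glyceraldehyde-3-phosphate dehydrogenase, a lactate dehydrogenase and a phosphoglycerate kinase. These genes are transcribed in spermatids, or for Ldhc and Pgk2 from meiosis on, and are silent in the mature spermatozoon.

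The reads summed over all CpG sites ranged from 48903817 (D13) to 115158278 (F3D1). As a check of the labelled cell type, the regions around the starts of 6 maternally imprinted genes, which lack methylation in sperm and carry it on 1 allele in somatic cells, were measured at 65 CpG sites. The mean of the 6 gene means was between 7.16% in C14 and 20.1% in C8, with D11 at 18.2% and the other animals between 7.23% and 12.9%. The 2 CpG sites in the H19 upstream region, which is methylated in sperm, had levels between 84.7% and 100%. Library C8 had the highest mean and the highest level at Peg3, Peg10 and Nap1l5, but 0% at Kcnq1ot1, where it was the lowest, and it was below D11 at Nnat and below F3C9 at Plagl1. The part of other cells in the results below was not tested.

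The CpG sites of intermediate level described most closely lie in the first exons of Prm1 and Tnp1, around the Tnp1 start and upstream of Gapdhs, and these stretches are shown to let each level be placed on its sequence. They are read in the direction of the gene, in lower case, with CpG sites that had at least 10 reads in capitals. The Prm1 stretch is the coding part of its first exon (chr16:10796626-10796731, minus strand), which begins at the start codon.
Prm1 first coding stretch: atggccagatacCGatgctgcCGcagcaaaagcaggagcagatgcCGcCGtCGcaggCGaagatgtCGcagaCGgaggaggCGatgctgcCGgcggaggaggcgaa
All 12 CpG sites of this stretch are the first 2 bases of arginine codons of the form CGN, and 10 of them had reads. Of its 35 complete codons 12 are CGN and 10 are the other arginine codons AGA or AGG. Over the whole coding sequence CGN codons made up 31.4% of the codons of Prm1, 12.1% of Prm2, 10.9% of Tnp1 and 6.84% of Tnp2, against a median of 2.69% over 21556 genes. In Smcp and Pgk2 they made up 0% and 0.719%. The coding CpG sites measured in Prm1 are therefore in its arginine codons.

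The Tnp1 stretches are the coding part of its first exon (chr1:73015725-73015863, minus strand) and the 150 bases before the gene start (chr1:73015910-73016059), which hold a single CpG site.
Tnp1 first coding stretch: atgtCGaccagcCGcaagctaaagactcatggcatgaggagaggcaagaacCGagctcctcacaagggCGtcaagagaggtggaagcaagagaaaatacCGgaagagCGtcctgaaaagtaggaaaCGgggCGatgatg
Tnp1 upstream: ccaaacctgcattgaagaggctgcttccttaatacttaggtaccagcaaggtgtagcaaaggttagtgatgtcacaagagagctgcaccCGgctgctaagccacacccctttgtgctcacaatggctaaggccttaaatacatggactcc
All 8 CpG sites of the coding stretch had reads, and 4 of them begin a CGN codon. The upstream stretch holds the letters TGATGTCA, a variant of the cyclic AMP response element bound by the spermatid regulator CREM. TGATGTCA or its reverse complement was in the RefSeq promoter (250 bases before to 50 after the start, GRCm38.p6) of Tnp1, Gapdhs and Smcp, 3 of the 9 listed genes in the promoter table, and in 3.62% of all 32851 promoters. The full palindrome TGACGTCA was in 0 of the 9 and in 1.79% of all promoters.

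The Gapdhs stretch (chr7:30744196-30744295, minus strand) holds the 3 covered CpG sites nearest to the gene start, the closest 535 bases before it, inside the antisense genes Tmem147os and Gm26935.
Gapdhs upstream: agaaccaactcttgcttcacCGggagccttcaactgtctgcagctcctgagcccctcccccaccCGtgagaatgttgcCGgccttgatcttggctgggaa

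Of the 10 genes 8 had a CpG site with at least 10 reads and 5 (Tnp1, Tnp2, Odf1, Gapdhs and Ldhc) had a site with at least 10 reads in all 10 animals. RRBS reads the ends of fragments cut at the sequence CCGG by MspI, so few sites are seen where CCGG is rare. The Smcp window held 0 CCGG sequences and 28 CpG sites, and had 0 reads. The Pgk2 window held 1 CCGG sequence and 29 CpG sites, and its single site with reads stayed under 10 reads in every animal. The methylation of both genes was therefore not measured. For comparison, 16.9% of all protein-coding windows had 0 sites, 1.84% had 0 CCGG sequences, and the median window had 26 CCGG sequences and 38 sites. Prm1 and Prm2 shared the same 11 sites, which lie in Prm1, and the 2 sites of the Prm3 window lie in the 5′ UTR of Tnp2. Prm2 and Prm3 thus had no covered site of their own.

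The sites fell into 11 runs with gaps of at most 500 bases. The plot of run levels by animal shows them in order. The highest levels were at the runs in and behind Ldhc and behind Odf1, with means over the animals from 93.9% to 97.4%. They were followed by the run in the neighbouring gene Tmem147 behind Gapdhs (79.6% ± 9.93, SD, n = 10), the first exon of Tnp2 (74.2% ± 15.2, n = 9), the first exon of Prm1 (67.5% ± 9.54, n = 10), the run upstream of Gapdhs (51.0% ± 8.67, n = 10) and the start of Tnp1 (21.8% ± 8.31, n = 10). The CpG islands at the 3′ end of Gapdhs (0.720% ± 0.310, n = 10) and behind Tnp2 (1.32% ± 1.15, n = 10) were almost free of methylation. Each animal entered with its own covered sites, and over the 2 sites covered in all animals the Tmem147 run was at 69.7%, below Tnp2. Neighbours in this order overlapped between animals with the exception of Tnp1 and the island behind Tnp2. The Prm1 run was above the Gapdhs upstream run in 9 of 10 animals, and the latter above Tnp1 in 9 of 10.

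**Figure D1:**
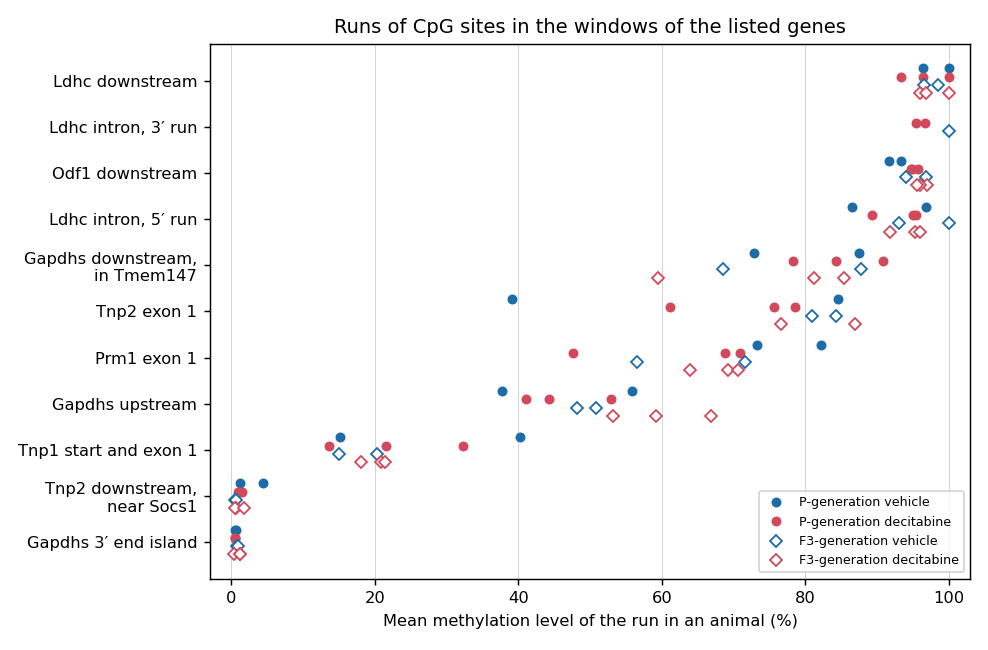
Mean methylation level (%) of each run of CpG sites in each animal, over the sites with at least 10 reads in that animal. Circles are P-generation and open diamonds F3-generation animals, blue vehicle and red decitabine. The Ldhc and Odf1 runs lie near 95%, the 2 islands near 1%, and Prm1, Gapdhs upstream and Tnp1 in between.

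In Prm1, 11 sites (chr16:10796640-10796746) were covered, 10 in the coding part of the first exon and 1 in the 5′ UTR, 77 to 183 bases behind the RefSeq start. Of these, 8 sites had at least 10 reads in all 5 P-generation animals and the other 3 in all 5 F3-generation animals. The mean of the 8 sites was 73.3% in C8, 86.5% in C14, 70.4% in D10, 54.2% in D11 and 76.0% in D13. Only D11 stood clearly below the others, and D13 lay between the vehicle-control animals. Decitabine treated animals had a mean of 66.9% ± 11.4 (SD, n = 3) and vehicle-control animals of 79.9% ± 9.36 (n = 2), which differed by -13.0 percentage points (here called points) and overlapped (exact permutation test, two-sided, p = 0.4, where the smallest possible p is 0.1).

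In the F3-generation the 3 remaining sites of Prm1 averaged 43.6% (F3C9), 62.6% (F3C30), 74.4% (F3D1), 60.2% (F3D7) and 70.7% (F3D31). The lowest animal was a vehicle-control descendant and the groups overlapped. Descendants of decitabine treated animals had 68.4% ± 7.35 (n = 3) and vehicle-control descendants 53.1% ± 13.4 (n = 2), 15.3 points more (exact permutation test, p = 0.3). The mean was thus lower after decitabine in the P-generation and higher in the F3-generation, but at different CpG sites of the exon. The 8 sites of the P-generation had at least 10 reads in every F3-generation animal except F3D31. Their levels ran from 46.8% to 76.6% in F3C9 and from 58.3% to 83.3% in F3C30. In F3D1 they ran from 61.7% to 77.1% and in F3D7 from 56.5% to 73.9%, so that the groups overlapped in these ranges. With a minimum of 5 reads, chosen after the values were seen, all 11 sites could be fitted in all 10 animals, and the difference between the generations had an unadjusted p of 0.0488 and an adjusted p of 0.991 in limma.

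The only CpG sites of the listed genes called in either generation were 2 sites in this exon in the P-generation, both lower after decitabine. A call required pooled levels to lie 25 or more points apart with a q-value under 0.01 in a logistic model, and 2 of 79 tested sites passed, against 0.705% of all sites tested and 0.368% called lower. At chr16 position 10796649 the level was 100% in C8, 86.2% in C14, 71.4% in D10, 53.3% in D11 and 58.3% in D13. At position 10796673 it was 100% in C8, 89.7% in C14, 71.4% in D10, 56.7% in D11 and 58.3% in D13. Both decitabine means, 61.0% ± 9.34 and 62.1% ± 8.08 (n = 3), were below the vehicle-control means of 93.1% ± 9.75 and 94.8% ± 7.31 (n = 2), and the groups did not overlap at either site. The pooled levels differed by -30.4 and -31.0 points (q = 0.00473 and q = 0.00252). In the F3-generation position 10796649 had 66.0% in F3C9 and 83.3% in F3C30, against 77.1% in F3D1 and 73.9% in F3D7. Position 10796673 had 63.8% and 83.3% against 64.6% and 73.9% in the same animals, and F3D31 had too few reads at both.

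These 2 sites differed from the other 6 sites on the same reads. C8 had 63.2% to 65.0% and D13 75.0% to 83.3% at the other 6 sites, so that their order was inverted there, as the plot of the Prm1 sites shows. The 8 sites had 19 to 20 reads in C8 and 12 reads in D13, and the methylated counts took 3 distinct values in each, as neighbouring sites were read together. Wilson 95% intervals at 10796649 ran from 83.9% to 100% in C8 and from 32.0% to 80.7% in D13, and such intervals cover the counting of reads only, which after PCR are not independent molecules. Without C8, without D11, with an overdispersion term or with limma per CpG site, 0 of these 2 sites were called. With a minimum of 20 reads they could not be tested, as D13 had 12. With Fisher's exact test only the site at 10796673 was called.

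**Figure D2:**
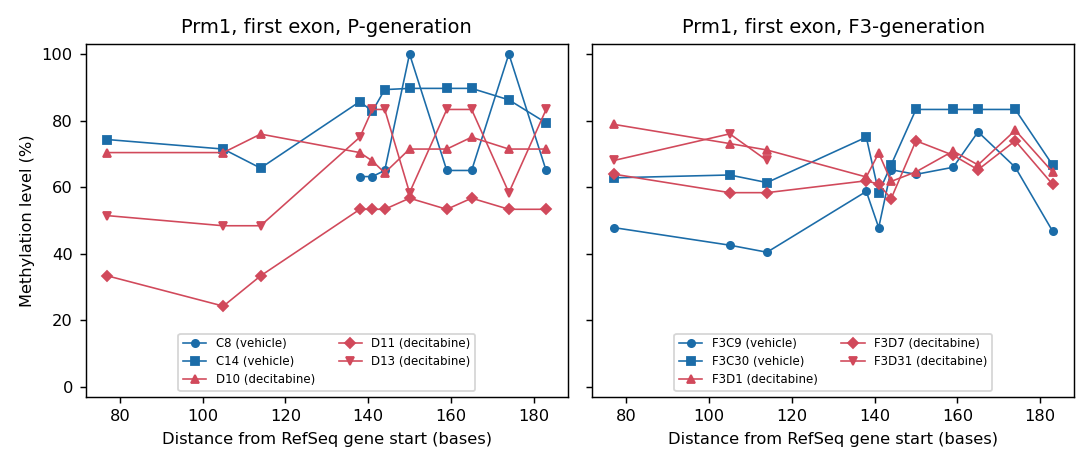
Methylation level (%) of the 11 CpG sites of the Prm1 first exon against their distance in bases from the RefSeq start, in the P-generation (left) and the F3-generation (right). Each line is an animal, blue vehicle and red decitabine, and sites under 10 reads are left out. C8 rises to 100% and D13 falls to 58.3% at the same 2 sites, 150 and 174 bases from the start.

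The Tnp1 sites (chr1:73015715-73015969) cover the first intron's edge, the first coding stretch, the 5′ UTR and a site 60 bases upstream of the annotated start, and the antisense gene 1700027A15Rik lies over all of them. Over the 11 sites shared by all animals the mean was 40.2% in C8, 15.9% in C14, 36.0% in D10, 24.6% in D11 and 13.8% in D13. The vehicle-control animals were the highest and the second lowest of the P-generation, and the decitabine treated animals lay between or below them. F3C9 had 19.9% and F3C30 17.0%, and F3D1 had 23.6%, F3D7 20.2% and F3D31 21.9%. Over these 11 sites the 3 descendants of decitabine treated animals were above both vehicle-control descendants. Over the 13 sites covered in all F3-generation animals the groups overlapped (exact permutation test, p = 0.4). There F3C9 had 20.3%, above F3D7 with 18.1%.

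Decitabine treated animals had 24.8% ± 11.1 (n = 3) and vehicle-control animals 28.1% ± 17.2 (n = 2) in the P-generation, -3.28 points apart (exact permutation test, p = 0.7). Without C8 the difference was 7.32 points over the 13 sites then shared, and without C14 -15.4 points over the same 11 sites. In the F3-generation the means were 21.9% ± 1.72 (n = 3) and 18.4% ± 2.11 (n = 2), 3.44 points apart (exact permutation test, p = 0.2), while pooled reads gave -0.270. The SD of Tnp1 over the 10 animals, 8.54 points, was above that of 98.7% of the 15740 windows with at least 5 shared sites, whose median SD was 0.830. These windows were not matched for level. The SD was 11.8 in the P-generation over 11 sites and 2.65 in the F3-generation over 13 sites. The starts of the spermatid genes H1f7 and Cyct, at a like level, had SDs of 13.7 and 9.21 over the 10 animals. In limma, on the log2 ratio of methylated to unmethylated reads, the Tnp1 window differed by -0.32 with SE 0.63 in the P-generation (adjusted p = 0.974).

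Within Tnp1 the level changed along the gene. The site next to the annotated start (position 73015908) had the highest mean, 31.9%, with a range from 12.8% to 53.7%. The sites from 73015850 to 73015899 had means from 13.5% to 16.8%, and the sites from 73015715 to 73015763, at the 3′ end of the coding stretch, from 26.2% to 31.2%. At position 73015731 the level was 65.5% in C8, 20.8% in C14, 49.3% in D10, 29.5% in D11 and 8.62% in D13, and Wilson 95% intervals of C8 (52.7% to 76.4%) and D13 (3.74% to 18.6%) were far apart. In the logistic model 0 of 11 sites were called in the P-generation and 0 of 13 in the F3-generation. Without C8 the site next to the start (73015908) was called higher after decitabine, and without C14 3 sites at the 3′ end of the stretch were called lower, so the direction depended on which vehicle-control animal was kept.

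The largest difference of Tnp1 in the F3-generation was at position 73015899, the first base of the RefSeq transcript. There F3C9 had 0% and F3C30 10.3%, against 40.0% in F3D1, 17.6% in F3D7 and 14.3% in F3D31, and the descendants of decitabine treated animals were all higher (q = 0.0160). In the P-generation it was 0% in C8, 10.0% in C14, 26.5% in D10, 12.0% in D11 and 12.1% in D13, and the decitabine treated animals were again all higher (q = 0.0868). At the neighbouring sites 73015850, 73015858 and 73015876 C8 had 33.3%, 21.2% and 21.2%, on 33 reads as at 73015899. The P-generation groups overlapped at these neighbouring sites. At 73015763, the site with the largest difference in the P-generation, the levels were 25.8% ± 11.2 (n = 3) and 43.1% ± 25.1 (n = 2), and C8 alone was at 60.9%. The F3-generation levels there were 19.03% ± 7.92 (n = 3) and 30.99% ± 11.8 (n = 2), lower in the decitabine group with the groups overlapping. This site had the lowest q-value of Tnp1 in the F3-generation (q = 0.0153, pooled levels -14.6 points apart).

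**Figure D3:**
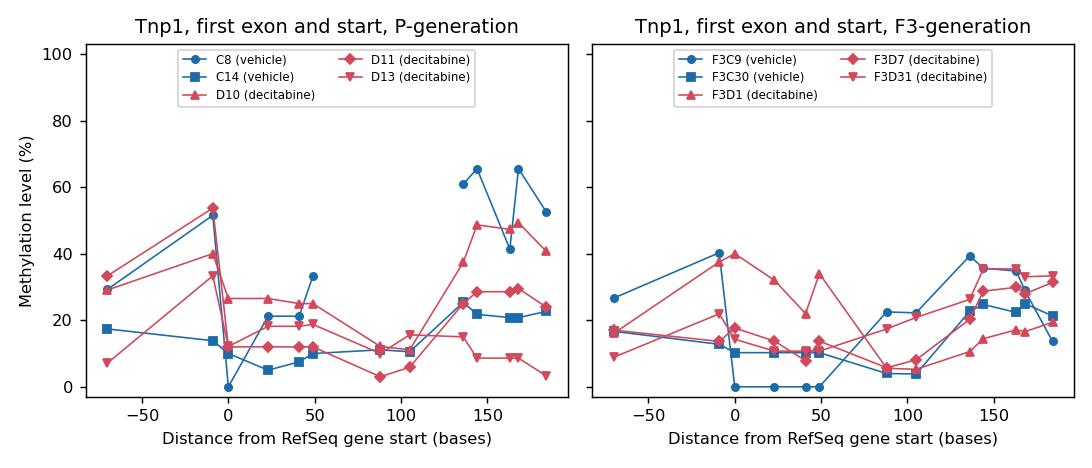
Methylation level (%) of 13 CpG sites of Tnp1 against their distance in bases from the RefSeq start, in the P-generation (left) and the F3-generation (right). Each line is an animal, blue vehicle and red decitabine. Behind base 130 the P-generation animals spread from 3.33% in D13 to 65.5% in C8, and F3-generation animals lie closer together.

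The start regions of Tnp1 and Prm1 were compared with those of all genes that had at least 3 covered sites within 500 bases of a RefSeq start. In the P-generation 90.1% of 12552 genes had a mean level under 10%, 8.25% a level from 10% to 90% and 1.63% a level above 90%. Tnp1, with 26.1%, was above 92.8% of the genes and Prm1, with 72.1%, above 96.6%. The comparison holds only starts with enough covered sites and was not matched for CpG content. The Prm1 sites used lie in its coding exon. The RefSeq promoter held 1 CpG site in Prm1 and 6 in Tnp1, against a median of 7 over all promoters. The starts of the somatic relatives Gapdh (0.950%), Ldha (1.65%) and Pgk1 (0.850%) were nearly free of methylation over the 10 animals, with single animals at most at 5.76%, and Ldhb had too few sites. The sperm genes Gapdhs, Ldhc and Pgk2 themselves had under 3 sites at the start, so the paralogues could not be set side by side.

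**Figure D4:**
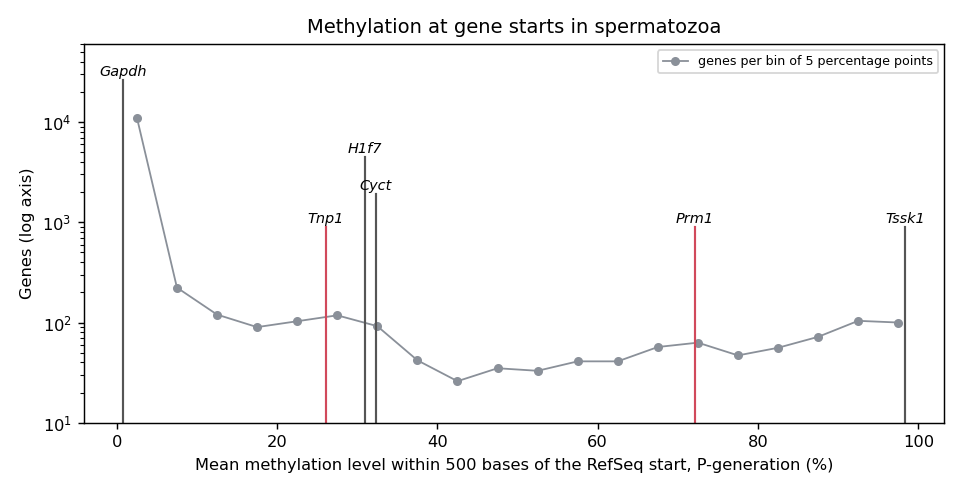
Number of genes (log axis) by the mean methylation level within 500 bases of the RefSeq start in the 5 P-generation animals, in bins of 5 points (grey points and line). Vertical lines give single genes and their height has no meaning. Tnp1 (26.1%) and Prm1 (72.1%) stand apart from the bulk of starts near 0%, where Gapdh lies.

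Tnp2 itself had 3 thinly covered sites, in its coding exon and 5′ UTR (chr16:10788486-10788655), with 0 sites at 10 reads in all animals of a generation. Its coding site, position 10788486, was between 63.2% in F3D1 and 86.7% in D13 over the 8 animals with enough reads. At position 10788655 the level was 8.33% in C8 on 12 reads, 50% in D11 and 70.0% in D13, and between 86.7% and 100% in the other 4 animals. At position 10788615 C8 had 70.0% on 10 reads, within the range of the others from 57.1% in D11 to 83.3% in F3D7. The gene was thus largely methylated in most animals, with C8 low at position 10788655 but not at 10788615. The 15 shared sites of its window (chr16:10785957-10786253) lie 2402 to 2698 bases behind the RefSeq start, toward the neighbouring gene Socs1. Their mean was at most 1.75% in 9 animals and 4.37% in C8, where position 10786166 had 46.7% on 15 reads against at most 5.56% elsewhere.

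Over its shared sites the Tnp2 window differed by -1.58 points in the P-generation (1.19% ± 0.280, n = 3, and 2.77% ± 2.26, n = 2, exact permutation test, p = 0.2) and by 0.320 in the F3-generation (0.940% ± 0.700 and 0.610% ± 0.0800, exact permutation test, p = 0.9). Without C8 the P-generation difference was 0.0200 and without C14 -3.17 points. These values describe the island and not the gene. At position 10786186 the F3-generation groups were 2.79 points apart, the most of any shared site.

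For Odf1 the 3 shared sites (chr15:38227844-38227930) lie behind the gene. Their mean was 93.3% in C8, 91.6% in C14, 94.9% in D10, 94.7% in D11 and 95.7% in D13, and both vehicle-control animals were below all decitabine treated animals. The groups lay 2.64 points apart (95.1% ± 0.520, n = 3, against 92.4% ± 1.21, n = 2, exact permutation test, p = 0.1, the smallest possible). In the F3-generation they lay 0.700 points apart (96.1% ± 0.710 against 95.4% ± 1.97, exact permutation test, p = 0.6). It came from position 38227930, with 77.6% in C14, 86.2% in C8 and 87.0% to 98.3% in the decitabine treated animals (q = 0.0631). This site was also without overlap in the F3-generation, with 89.6% and 90.4% against 91.4% to 97.2% (q = 0.411). The neighbouring site 38227864 went the other way in the F3-generation, with 100% in both vehicle-control descendants and 95.2% to 98.9% in the others (q = 0.188), and its mean was also lower after decitabine in the P-generation (96.7% ± 3.01 against 100% ± 0). Without F3C9 the F3-generation window difference of Odf1 was 2.09 and without F3C30 -0.690 points, so its sign depended on 1 animal.

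Gapdhs was seen on both sides. The 3 upstream sites had a mean of 37.7% in C8, 55.9% in C14, 44.2% in D10, 41.1% in D11 and 52.9% in D13, and the vehicle-control animals enclosed the decitabine treated ones. The F3-generation had 48.2% (F3C9), 50.9% (F3C30), 53.2% (F3D1), 66.8% (F3D7) and 59.2% (F3D31), and the descendants of decitabine treated animals were all higher in this mean. The differences were -0.750 (46.1% ± 6.14 against 46.8% ± 12.8, exact permutation test, p = 1) and 10.2 points (59.7% ± 6.79 against 49.5% ± 1.86, exact permutation test, p = 0.2). At each of the 3 sites alone the F3-generation groups overlapped. Of these sites the nearest to the start, position 30744216, varied most, from 18.2% in D10 to 63.3% in F3D7.

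Behind Gapdhs the island at the start of Tmem147 reached into the 3′ UTR of Gapdhs, but its 31 shared sites (chr7:30729188-30729599) all lie behind the gene. Their mean stayed at or below 1.57% in every animal. The 2 shared sites within Tmem147, positions 30728400 and 30728432, had means of 84.3% and 55.1%. The largest difference of the window in the P-generation was at 30728432, with 62.5% ± 10.2 (n = 3) and 43.5% ± 17.7 (n = 2), and in the F3-generation at 30728400, with 88.9% ± 9.88 and 74.2% ± 2.81. Neither was called (q = 0.138 and q = 0.361).

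Ldhc was methylated wherever it was read. The shared sites of the intron run (positions 46865532 and 46865564) were at 86.5% in C8 and between 91.4% and 100% in the other animals, and the 4 sites behind the gene (chr7:46879600-46879854) were between 93.4% and 100%. The low intron value of C8 came from position 46865532, with 73.1% against at least 90.2% in the others. Over its 6 shared sites the Ldhc window differed by -0.420 points in the P-generation and 0.130 in the F3-generation (exact permutation tests, p = 0.9 and p = 1). Both signs turned with 1 animal left out, to 0.370 without C14 or 0.360 without D10 in the P-generation, and to -1.75 without F3C30 or -1.02 without F3D31 in the F3-generation. The largest difference in the F3-generation was at 46879854, with 95.3% ± 5.03 (n = 3) and 100% ± 0 (n = 2).

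Across the listed genes 7 of 79 sites (8.86%) had groups without overlap in the P-generation and 7 of 84 (8.33%) in the F3-generation, against 8.41% and 9.71% of all sites, so the shares were near those of the genome. The P-generation sites were 3 higher and 4 lower, the F3-generation sites 6 higher and 1 lower in the decitabine group. Of the 71 sites covered in all animals 2 were without overlap in the same direction in both generations, the Tnp1 start at 73015899 and the Odf1 site at 38227930, against 0.750% of all such sites. No site was called in the F3-generation, against 0.237% of all sites, and in the logistic model 11 member sites had an unadjusted p under 0.05 in each generation, against 161109 of 934227 and 169742 of 1054272 sites over the genome, a larger share than among the members. Pooled levels differed by a median of 0.701 points (P-generation, either sign) and 0.507 in the F3-generation, against 0.935 and 0.959 over all sites. These shares and medians were not matched for level and include the nearly unmethylated islands behind Gapdhs and Tnp2, where groups can hardly separate. In the P-generation the islands held 31 and 15 of the tested sites, with 0 and 1 without overlap. In the F3-generation they held 39 and 15, with 0 and 0 without overlap.

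On the level of gene windows, limma called 0 of the 5 windows with shared sites in the P-generation, the F3-generation or the difference between the generations, against 0% of 17413 windows in each. Only Tnp1 was tested at its own start and first exon, and Prm1 was not among the 5. The Tnp2 window held only the island toward Socs1, and 31 of 36 shared Gapdhs sites were in the island at Tmem147. Odf1 was tested only behind the gene, and Ldhc in an intron and behind the gene. None of the 5 had an unadjusted p under 0.05, against 1078, 413 and 741 windows over all genes. The listed windows differed by a median of 1.58 points (P-generation, either sign) and 0.700 in the F3-generation, against 0.660 and 0.480 over all windows. The groups of Odf1 in the P-generation and of Tnp1 and Gapdhs in the F3-generation did not overlap, which held for 20.4% and 18.8% of all windows. With runs of sites as the unit, 0 of 9 runs were called in either generation, against 0% of all runs, and 0 had an unadjusted p under 0.05. Groups did not overlap in 2 runs of the P-generation (Odf1 and the Socs1 island behind Tnp2) and in 1 run of the F3-generation (Gapdhs upstream), against 18.0% and 18.5% of all runs. As tested, the Socs1 run (chr16:10784230-10786253) held 126 sites in the P-generation, of which only 15 lie within the Tnp2 window. Its levels were 0.760% after decitabine and 1.07% in vehicle-control animals, -0.310 points apart.

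Animal differences at some of these genes went along with the level at the imprinted starts. Over the 10 animals the mean of Tnp1 had a Pearson r of 0.72 (permutation p = 0.0218, adjusted over 8 runs 0.0870) and a Spearman rho of 0.81 (permutation p = 0.00720, adjusted 0.0487) with the imprinted mean. Without C8 and D11, the animals farthest from the median, r was 0.55. The Gapdhs upstream run had r = -0.75 (permutation p = 0.0113, adjusted 0.0870) and rho = -0.77 (permutation p = 0.0122, adjusted 0.0487), and without the same animals r was -0.39, so that its relation rested on them. Each generation held 5 animals, too few for a correlation of its own. Within the F3-generation F3C30 had the lowest imprinted mean (7.23%) and F3D1 the highest (12.4%), and their Gapdhs upstream levels, 50.9% and 53.2%, were not in the opposite order. The animals are also related, which these p-values do not take into account. The permutations exchanged animals between the generations, so that a shift between generations is part of these relations. The Gapdhs upstream mean, for instance, was 46.4% over the P-generation and 55.7% over the F3-generation. Whether other cells in the preparations set these levels was not tested.

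**Figure D5:**
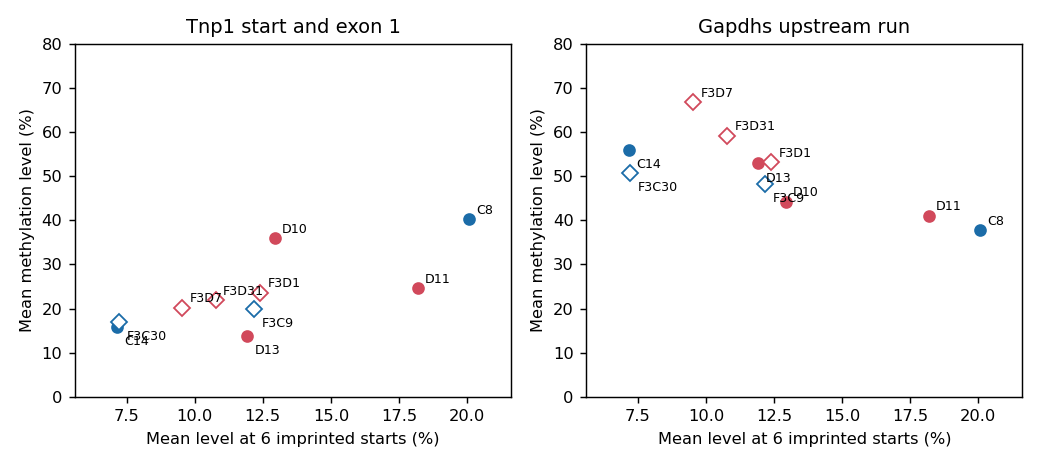
Mean methylation level (%) of the Tnp1 run (left) and the Gapdhs upstream run (right) against the mean level (%) at 6 imprinted gene starts in the same animal. Circles are P-generation and open diamonds F3-generation animals, blue vehicle and red decitabine. C8, farthest right at 20.1%, has the highest Tnp1 level (40.2%) and the lowest Gapdhs upstream level (37.7%).

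Other genes of the same spermatid programme were described as a list of 40, such as Akap4 of the fibrous sheath, Acr of the acrosome and the kinases Tssk2 and Tssk6. Of these, 33 windows had a shared site. Akap4 and Tssk2 had 0 shared sites, Acr had 1 and Tssk6 had 63. limma called 0 of the 33 windows in either generation or between the generations, against 0 of all 17413 windows. An unadjusted p under 0.05 in limma was found for 2, 1 and 1 of the 33, against 1078, 413 and 741 of all windows. In the P-generation 17 of the 33 were higher and 16 lower after decitabine, and in the F3-generation 15 higher and 18 lower. At the start region 13 of them had at least 3 sites in all animals, with a median level of 1.67%. Of these, 10 starts were under 10% and Tssk1 was at 97.2%. The remaining starts, of H1f7, a linker histone of the spermatid, and Cyct, the testis cytochrome c, had levels like that of Tnp1, 26.2% ± 13.7 and 26.1% ± 9.21 (n = 10). H1f7 was highest in D10 (56.9%) and Cyct in D10 (41.0%), so that C8 was not the highest animal there.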

How the data were processed

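RRBS was carried out on spermatozoal DNA of 10 animals in 4 groups. The submitters' processing notes name CASAVA 1.8.2, Trim Galore 0.3.3, cutadapt 1.1, Bismark 0.10.1 and mm10. The authors deposited counts of methylated and unmethylated reads per cytosine, unfiltered, by strand and animal. Strands were summed and sites needed 10 reads. The genes and lists were chosen with earlier results of these data known.

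Sites that reached this minimum in each of the 5 animals per generation entered a logistic likelihood ratio with Benjamini-Hochberg q-values, in place of methylKit. This model holds no variation between animals. Windows (sites covered in all 10 animals) and runs of sites were tested with limma 3.58.1 in R 4.3.3 on log2 ratios with a pseudocount of 1, and means by two-sided exact permutation over 10 splits. The p-values of limma and of the permutation tests measure the spread between these animals, and those of the logistic model only the pooled reads. Kinship between the animals was not modelled. Named sites were the called sites and, per gene, the shared sites nearest to the start, with the lowest and highest mean, and with the largest difference in each generation. Other sites and the H1f7, Cyct and Tssk1 starts were named after their values were seen. Runs and the minimum of 5 reads were also chosen after seeing the data. Python 3.11.15 with scipy 1.17.1 was used, and scripts were tested on simulated data. Sequences and promoters came from GRCm38 and RefSeq. Counting precision is given as Wilson 95% intervals.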

Additional observations from a re-analysis of the deposited data

How the results depend on the processing

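The P-generation gave 2 calls among the listed genes' sites, both in Prm1. The count was 0 with a minimum of 20 reads, where the Prm1 sites were not tested because D13 had 12 reads, 0 with an overdispersion term, 0 with limma per CpG site and 1 with Fisher's exact test. Leaving out 1 animal gave 0 to 7 calls. It was 0 without D11, 1 without C8 (a Tnp1 site) and 7 without C14 (3 in Tnp1, 1 behind Gapdhs, 1 behind Tnp2 and the 2 in Prm1). In the F3-generation 0 sites were called, and leaving out 1 animal gave 0 to 3, the 3 without F3C30 (73015899 in Tnp1, and 10796709 and 10796718 in Prm1, all higher in the decitabine group). The calls over all sites moved likewise, from 6584 to 41596 without C14 and to 2770 without C8 in the P-generation, from 2494 to 14088 without F3C30 and to 730 without F3C9 in the F3-generation, and to 343 and 179 with an overdispersion term. The cause was not tested. No listed window or run was called under any alternative. Of 94 alternative values for the 10 window differences, 15 had another sign and 11 moved by at least 1 SD. No paired analysis was possible because the groups share no replicate numbers in the labels, and descent was not used in any test. With 2 against 3 animals the exact test cannot give a p below 0.1, and the Prm1 sites had 12 reads in D13.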
